A study of Mus musculus with 27 samples.

Results

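The RNA levels of 10 genes of the Wnt pathway were followed in mouse embryonic stem cells. The cells formed embryoid bodies with or without a short hairpin RNA (shRNA) against Sox17. Of these genes, 5 are transcriptional targets of the pathway, namely Axin2, Nkd1, Sp5, Lef1 and Ccnd1. The other 5, Dkk1, Sfrp1, Sfrp5, Frzb and Shisa2, code for antagonists. The genes are grouped by their place in the pathway, and each was read from the probe set of its symbol with the highest mean over the 27 arrays. All 10 were on the array and passed the filter on low values, and they form 10 of the 13297 genes tested.

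The cells were of the AB2.2 embryonic stem cell line. Both arms had been transduced with a lentiviral vector for eGFP, a green fluorescent marker protein, and an shRNA, which was directed against firefly luciferase in the control arm and against Sox17 in the other arm. Per the labels, fluorescent cells were sorted, grown as embryoid bodies and moved to culture plates between days 4 and 5. Arrays were run at 7 time points, namely days 0 and 2, days 4 to 6, and days 8 and 10, with 2 arrays per arm and day, described as biological replicates, except for the Sox17 shRNA arm at day 0, which had 1. Each arm used 1 hairpin target in 1 cell line, so p-values here measure the spread between cultures of that line. Levels are log2 values, and an arm difference is the Sox17 shRNA mean minus the control mean of the same day. A difference was called where the adjusted p of limma's moderated test, Benjamini-Hochberg over all genes tested, was below 0.05.

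Sox17, which codes for a transcription factor of the endoderm, was at 10.30 and 10.66 in the control arrays of day 4, against 5.53 and 9.39 in the Sox17 shRNA arrays. At day 5 it was at 10.38 and 10.38 in the control arm, against 7.77 and 10.08. The Sox17 shRNA arrays of both days therefore spanned a wide range of Sox17, although all lay below the control arrays. At day 6 the arms overlapped, with replicate 2 at 9.39 in the Sox17 shRNA arm and 9.35 in the control arm. The day 6 difference in Sox17 was -1.23 between the arrays of replicate 1 and 0.03 between those of replicate 2. At days 8 and 10 the Sox17 shRNA arrays again lay below the control arrays. Averaged over days 4, 5, 6, 8 and 10, Sox17 was lower by 2.00 on the log2 scale (SE 0.36, limma adjusted p = 3.63e-04). At day 0 the mean of 6 pluripotency markers was 11.83 and 11.86 in the control arrays and 11.52 in the Sox17 shRNA array. The mean of the bioB hybridisation control spikes was 9.03 or more on all arrays of days 0 and 2 and on replicate 1 of day 4 in both arms, and 7.81 or less on all other arrays. The gap between the 3′ and 5′ probe sets of actin, a sign of RNA integrity, was widest on Sox17 shRNA replicate 2 of day 4 at 0.86 and replicate 2 of day 6 at 0.75, and 0.55 or less elsewhere. These are bulk samples, so fewer cells of a type and less RNA per cell cannot be told apart.

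In canonical Wnt signalling, a Wnt ligand bound to a Frizzled receptor and an Lrp co-receptor stabilises beta-catenin, which enters the nucleus and acts with TCF/LEF factors on target genes. Some targets feed back on the pathway. Axin2 is a scaffold of the complex that degrades beta-catenin, and Nkd1 binds Dishevelled, which relays the receptor signal. The antagonists act further out: Dkk1 binds the Lrp co-receptors, and Sfrp1, Sfrp5 and Frzb carry a Frizzled-like domain that binds Wnt ligands. Shisa2 belongs to a family that was described in frog embryos as holding Frizzled and Fgf receptors inside the cell, so it is an antagonist that is not itself a secreted ligand trap. During gastrulation Wnt signalling is needed for the primitive streak, and secreted antagonists are known from the anterior endoderm and the heart-forming region.

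The promoters of 8 of the 10 genes had an entry in the RefSeq promoter set of build GRCm38.p6, from 250 bases before to 50 bases after a start site, at 11 start sites in all. Both strands were searched for the TCF/LEF letters CTTTGAT or CTTTGAA and for the SOX core letters ATTGTT. Of the 8 genes, 2 held TCF/LEF letters, Sp5 and Dkk1, and 0 held the SOX letters. Among all 32851 promoters of the set, 8.65% held the TCF/LEF letters and 10.7% held the SOX letters. The promoters of Sp5 and Dkk1 are shown because they hold the match, in capitals. That of Axin2 is shown because it belongs to a target called as higher in the Sox17 shRNA arm at day 5. That of Shisa2 belongs to the antagonist with the lowest Sox17 shRNA levels relative to control at that day. All 4 are printed 5′ to 3′ on the strand of the gene, and the position of a match is counted from the start site.
Sp5, chr2:70474673-70474972, plus strand: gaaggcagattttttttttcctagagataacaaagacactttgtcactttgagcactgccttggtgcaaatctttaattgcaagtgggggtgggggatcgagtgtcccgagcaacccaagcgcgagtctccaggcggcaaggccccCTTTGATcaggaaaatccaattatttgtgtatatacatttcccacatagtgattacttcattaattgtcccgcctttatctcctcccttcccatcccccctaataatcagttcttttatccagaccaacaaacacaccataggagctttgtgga
Dkk1, chr19:30549447-30549746, minus strand: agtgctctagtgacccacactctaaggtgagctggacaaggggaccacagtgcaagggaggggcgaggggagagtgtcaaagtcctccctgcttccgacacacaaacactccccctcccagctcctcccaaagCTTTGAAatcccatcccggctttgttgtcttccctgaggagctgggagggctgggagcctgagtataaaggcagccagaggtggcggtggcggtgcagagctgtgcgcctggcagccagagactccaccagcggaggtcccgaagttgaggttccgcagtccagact
Axin2, chr11:108920099-108920398, plus strand: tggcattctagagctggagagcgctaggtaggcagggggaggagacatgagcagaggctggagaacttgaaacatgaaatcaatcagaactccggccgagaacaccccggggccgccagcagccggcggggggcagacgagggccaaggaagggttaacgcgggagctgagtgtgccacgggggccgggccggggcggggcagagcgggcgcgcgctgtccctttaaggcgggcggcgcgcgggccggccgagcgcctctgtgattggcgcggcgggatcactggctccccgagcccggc
Shisa2, chr14:59625031-59625330, plus strand: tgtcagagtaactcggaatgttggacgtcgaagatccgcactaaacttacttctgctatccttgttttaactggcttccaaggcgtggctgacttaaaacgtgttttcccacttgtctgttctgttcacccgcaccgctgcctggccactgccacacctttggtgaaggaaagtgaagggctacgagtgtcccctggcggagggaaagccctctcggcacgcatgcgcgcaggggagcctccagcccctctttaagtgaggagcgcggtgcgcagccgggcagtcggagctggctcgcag
In Sp5 the first letter of the match lies at -104, and in Dkk1 at -117. The Sp5 window is 45.0% G and C, against 70.0% in Axin2, 60.7% in Dkk1 and 58.0% in Shisa2. A match of letters is a description of the window and not a measured binding site.

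In the control arm, 6 of the 10 genes were higher at day 4 than at day 0, and the other 4 did not pass the test. Over all genes, 46.1% were called in this comparison, 22.5% higher and 23.6% lower. Frzb was at 4.26 and 4.00 at day 0 and at 8.69 and 8.82 at day 4, a rise of 4.63 (24.7-fold, limma adjusted p = 4.18e-08). Dkk1 rose by 3.64 (12.4-fold, limma adjusted p = 2.52e-06), from 4.63 and 4.30 to 7.95 and 8.25. Both antagonists were thus below the overall median of all values, 5.53, on each control array of day 0 and above it on each of day 4. Sp5, a zinc finger factor, rose by 2.84 (7.18-fold), Axin2 by 2.09 (4.27-fold), Lef1, a TCF/LEF factor, by 1.43 (2.69-fold), and Nkd1 by 1.01 (2.02-fold). The limma adjusted p of these 4 targets was at most 0.00294. Ccnd1, the gene of cyclin D1, which drives cells into S phase, differed by -0.22 (limma adjusted p = 0.347). Sfrp1 differed by -0.17, Sfrp5 by -0.16 and Shisa2 by 0.77, and none of these passed the test. These results are those of the main probe sets. The third probe sets of Ccnd1 and Sfrp1 gave -0.70 and -1.42, both called as lower (limma adjusted p = 0.0286 and 4.15e-04). The second probe sets of Lef1 and Axin2 gave 0.60 and 0.23, and the third of Nkd1 gave 0.06. None of those rises was called (adjusted p = 0.0864, 0.348 and 0.783). The arrays of day 0 and day 4 also differ in the bioB spikes, and the part of this in the values was not tested beyond a fit with a term for the spike signal, in which the same 6 genes passed.

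By day 10 the control arm had kept some of these levels and lost others. Between days 10 and 0, 71.5% of all genes were called, so a call here says little by itself. Frzb was 3.91 above day 0 (15.1-fold), Dkk1 3.26 above (9.61-fold) and Shisa2 2.33 above (5.02-fold), with limma adjusted p of at most 1.94e-04. With the spike term these differences were 3.03, 2.13 and 1.53, all still called. Sp5 reached its highest level at day 4, at 8.09 and 8.30, and stood at 5.99 and 5.96 at day 10. That left it 0.62 above day 0 (limma adjusted p = 0.0389), a call that was lost without control replicate 1 of day 0 (adjusted p = 0.264) and without either control array of day 10 (adjusted p = 0.117 and 0.0969). Axin2 remained 1.69 above day 0 and Nkd1 1.88 above, although the second Nkd1 probe set gave -0.40 at day 4 and -0.70 at day 10 against day 0. Sfrp5 was lower by 0.67 (1.59-fold, limma adjusted p = 0.00258), and its second probe set gave -0.09 (adjusted p = 0.671). With a term for the bioB spike signal, the day 10 differences from day 0 of Sp5, Lef1, Ccnd1 and Sfrp5 did not pass (limma adjusted p = 0.444, 0.138, 0.0652 and 0.414).

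From day 2 to day 4, 3 of the 5 targets, Sp5, Axin2 and Nkd1, rose in both arms. In the Sox17 shRNA arm, Sp5 went from 5.22 and 5.33 to 8.80 and 9.13, a rise of 3.69 (12.9-fold), and in the control arm it rose by 2.80 over the same days. Axin2 rose by 2.19 in the Sox17 shRNA arm and by 1.54 in the control arm. Nkd1 rose by 1.17 and 0.86, respectively, by its main probe set, while the second gave -0.26 and -0.17, neither called. With the spike term the control change of Nkd1 was 0.63 and not called (limma adjusted p = 0.0826). The Nkd1 call was lost without control replicate 1 of day 2 (adjusted p = 0.0932), control replicate 2 of day 4 (adjusted p = 0.130) or Sox17 shRNA replicate 2 of day 4 (adjusted p = 0.0617). Among the antagonists, Shisa2 rose by 2.24 in the control arm (limma adjusted p = 0.00110), while the Sox17 shRNA arm differed by -0.07 (adjusted p = 0.924). Sfrp1 rose by 1.32 in the control arm (limma adjusted p = 0.00291), with a difference of 0.16 in the Sox17 shRNA arm (adjusted p = 0.733). Frzb rose in both arms, by 4.36 and 3.79, and so did Dkk1, by 2.67 and 2.03. The Dkk1 rise in the Sox17 shRNA arm was lost without replicate 2 of day 2 (adjusted p = 0.0581) or of day 4 (adjusted p = 0.0807). Over all genes, 32.5% were called from day 2 to day 4 in the control arm and 23.4% in the Sox17 shRNA arm. Whether these changes differed between the arms was not tested. By the fourth probe set of Sfrp1, the control change was -0.0063 and not called.

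Neither of the earliest days gave a called difference between the arms. At day 0, 0 of the 10 genes were called, against 1.89% of all genes, and at day 2, 0 of 10, against 2.54%. The day 0 comparison rests on a single Sox17 shRNA array. Its largest difference was in Shisa2, at 6.42 and 6.73 in the control arm and 5.15 in the Sox17 shRNA array, a difference of -1.42 (SE 0.55, limma adjusted p = 0.234).

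At day 5, by their main probe sets, 4 of the 5 targets were higher in the Sox17 shRNA arm and 0 were lower, with a median difference of 0.97. Over all genes, 9.39% were called at day 5, 6.15% higher and 3.24% lower, with a median of 0.00. At day 4, 1 target was higher, where 3.33% of all genes were, and at day 6, 2 targets were, where 2.84% were. At days 8 and 10, 0 of the 5 targets were called, against 4.82% and 10.0% of all genes in either direction. The median difference of the targets was 0.39, 0.54, 0.07 and -0.39 at days 4, 6, 8 and 10, respectively. With only the arrays of the day in the fit, which leaves fewer arrays to estimate the spread, some calls were lost and others gained. The day 5 differences of Axin2, Nkd1, Sp5 and Shisa2 did not pass (limma adjusted p = 0.0591, 0.166, 0.0994 and 0.103). Nor did Ccnd1 and Shisa2 at day 4 (adjusted p = 0.323 and 0.360) or Ccnd1 at day 6 (adjusted p = 0.130). Shisa2 passed at days 8 and 10 (adjusted p = 0.0483 and 0.00909), and Dkk1 and Ccnd1 at day 10 (adjusted p = 0.0368 and 0.0413). From day 4 on, replicate differences over all genes had an SD of 0.33 to 0.51 in the Sox17 shRNA arm and 0.10 to 0.34 in the control arm. The main fit pools both arms.

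**Figure D1:**
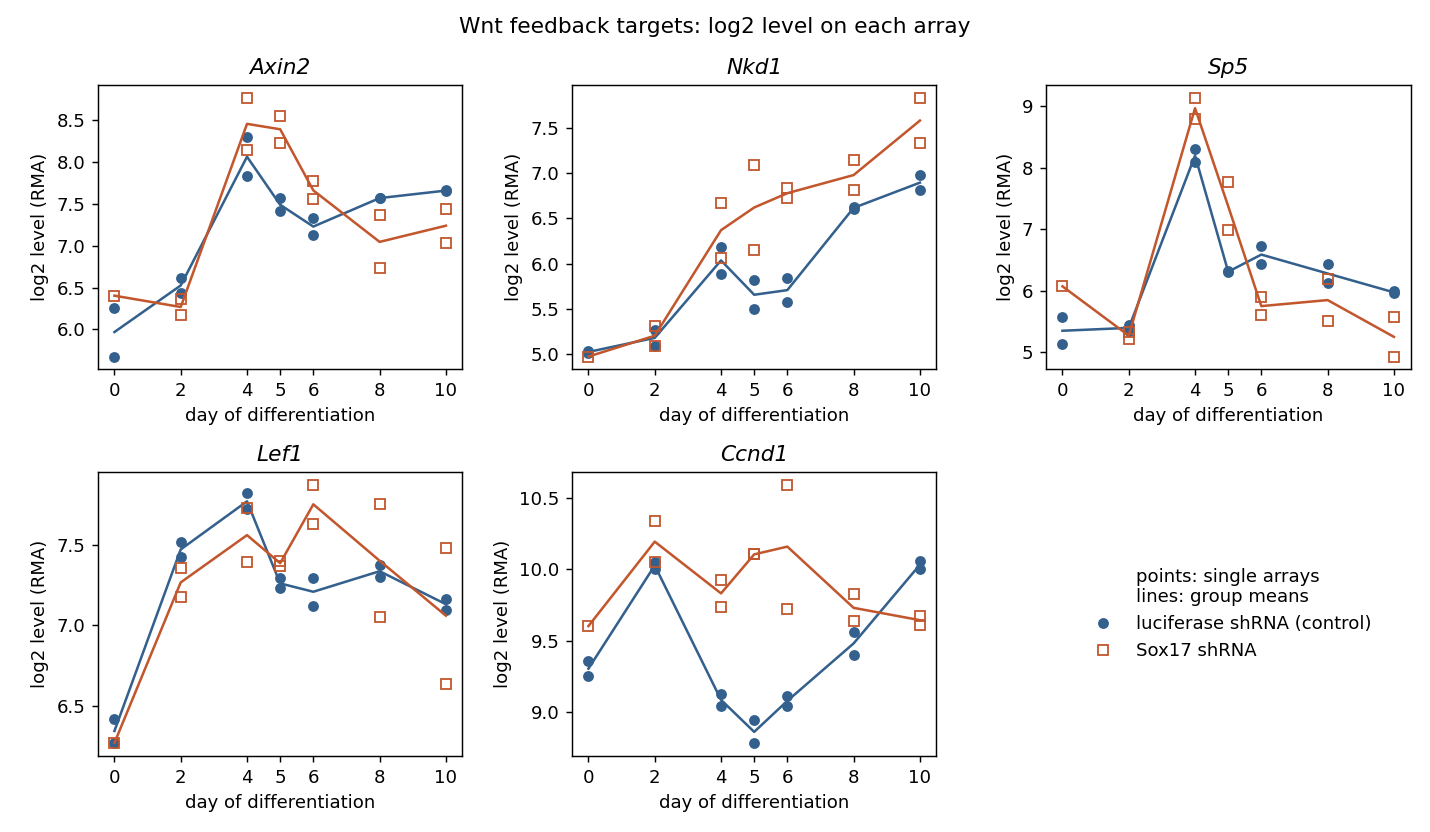
Log2 level (vertical axis) of the 5 Wnt target genes against day of differentiation (horizontal axis), with points for single arrays and lines through the means of the control and Sox17 shRNA arms. At day 5 both Sox17 shRNA arrays lie above both control arrays for the 5 genes, although the Lef1 difference was not called. At day 10 they lie below for Axin2, Sp5 and Ccnd1 and above for Nkd1, and none of these was called. The share of all genes whose arms separate in this way was not computed.

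Ccnd1 was higher under Sox17 shRNA at days 4, 5 and 6. At day 4 it was at 9.05 and 9.13 in the control arm and 9.74 and 9.93 in the Sox17 shRNA arm, and at day 5 at 8.94 and 8.78 against 10.10 and 10.10. At day 6 it was at 9.11 and 9.04 against 10.59 and 9.72. On each of these days both Sox17 shRNA arrays lay above both control arrays. The difference was 0.74 at day 4 (1.67-fold, SE 0.18, limma adjusted p = 0.0249), 1.24 at day 5 (2.36-fold, adjusted p = 4.70e-04) and 1.08 at day 6 (2.11-fold, adjusted p = 0.00132). At day 10 the order was turned, with control arrays at 10.06 and 10.00 and Sox17 shRNA arrays at 9.61 and 9.68, a difference of -0.39 that was not called (adjusted p = 0.221). The day 5 and day 6 calls held without any single array of the day, with differences of 1.16 to 1.32 and of 0.64 to 1.51. At day 4 the call no longer held on leaving out control replicate 1 (adjusted p = 0.120), control replicate 2 (adjusted p = 0.0854) or Sox17 shRNA replicate 2 (adjusted p = 0.0753). The other 2 probe sets of Ccnd1 were also called as higher at days 4, 5 and 6. Averaged over days 4 to 10, Ccnd1 was higher by 0.58 (1.5-fold, SE 0.08, limma adjusted p = 2.98e-05), and this held without each of the 20 arrays in turn.

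Nkd1 was higher under Sox17 shRNA at days 5 and 6. At day 5 it was at 5.49 and 5.82 in the control arm and 6.15 and 7.09 in the Sox17 shRNA arm, and at day 6 at 5.84 and 5.57 against 6.83 and 6.73. At day 8 it was at 6.63 and 6.61 against 7.14 and 6.82, and at day 10 at 6.98 and 6.81 against 7.84 and 7.33. From day 5 on, the Sox17 shRNA arrays lay above the control arrays on every day measured. The difference was called at day 5, at 0.97 (1.95-fold, SE 0.25, limma adjusted p = 0.0224), and at day 6, at 1.07 (2.11-fold, adjusted p = 0.0157). It was not called at day 8 (0.36, adjusted p = 0.583) or at day 10 (0.69, adjusted p = 0.0993). With the replicate number as a block within days, the day 10 difference was called (limma adjusted p = 0.0241). At day 5 the call no longer held on leaving out control replicate 1 (adjusted p = 0.206), control replicate 2 (adjusted p = 0.0530) or Sox17 shRNA replicate 2, where the difference was 0.50 (adjusted p = 0.219). At day 6 the call no longer held on leaving out control replicate 1 (adjusted p = 0.0638), control replicate 2 (adjusted p = 0.144) or Sox17 shRNA replicate 1 (adjusted p = 0.0968). The average over days 4 to 10 was 0.69 (1.61-fold, SE 0.11, limma adjusted p = 1.61e-04) and held without each array in turn. The array has 4 probe sets for Nkd1, and they disagree. That of the lowest mean gave an average of 0.68, while the other 2 gave 0.16 and 0.17 and were not called (adjusted p = 0.122 and 0.0880). The probe set of the lowest mean was also called at days 5 and 6, at 0.90 and 0.84. The other 2 gave 0.17 and 0.29 at day 5 (adjusted p = 0.625 and 0.319). At day 6 they gave 0.24 and 0.21 (adjusted p = 0.564 and 0.609), so neither was called on these days.

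Sp5 crossed over between days 5 and 6. It was at 8.09 and 8.30 in the control arm at day 4, against 8.80 and 9.13, and at 6.30 and 6.32 at day 5, against 7.76 and 6.99. At day 6 it was at 6.74 and 6.44 in the control arm, against 5.61 and 5.90, and at day 10 at 5.99 and 5.96 against 4.93 and 5.57. The Sox17 shRNA arrays were therefore the higher ones at days 4 and 5 and the lower ones at days 6 and 10. Only the day 5 difference was called among these, at 1.06 (2.09-fold, SE 0.26, limma adjusted p = 0.0153). It was 0.77 at day 4 (adjusted p = 0.0984), -0.84 at day 6 (adjusted p = 0.0721) and -0.72 at day 10 (adjusted p = 0.0904). With the replicate number as a block within days, the day 6 difference was also called (limma adjusted p = 0.0415). At day 5 the call no longer held on leaving out control replicate 1 (adjusted p = 0.105), control replicate 2 (adjusted p = 0.0783) or Sox17 shRNA replicate 1, where the difference was 0.68 (adjusted p = 0.270). Without Sox17 shRNA replicate 2 of day 10, the day 10 difference was called, at -1.04 (adjusted p = 0.0391).

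Axin2 was at 7.41 and 7.56 in the control arm at day 5 and at 8.55 and 8.23 in the Sox17 shRNA arm. The difference was 0.90 (1.87-fold, SE 0.24, limma adjusted p = 0.0248). At day 4 the arms overlapped, with 7.83 and 8.29 against 8.14 and 8.76. At day 8 Axin2 was at 7.57 and 7.57 in the control arm, against 6.73 and 7.36, and at day 10 at 7.65 and 7.66 against 7.04 and 7.44. The Sox17 shRNA arrays had by then moved below the control arrays, with differences of -0.52 (adjusted p = 0.301) and -0.42 (adjusted p = 0.351) that were not called. At day 5 the call no longer held on leaving out control replicate 1 (adjusted p = 0.178), control replicate 2 (adjusted p = 0.0825) or Sox17 shRNA replicate 1 (adjusted p = 0.240). The second Axin2 probe set was above the overall median on 0 arrays.

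Lef1 was not called on any day. At day 6 it was at 7.12 and 7.30 in the control arm and 7.87 and 7.63 in the Sox17 shRNA arm, a difference of 0.54 (limma adjusted p = 0.207). Averaged over days 4 to 10 the difference was 0.09 (SE 0.10, limma adjusted p = 0.580).

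Fewer antagonists than targets were called at day 5. At day 4, 1 of the 5 was lower, where 1.81% of all genes were, and 0 were higher. At day 5, 1 of the 5 was lower, where 3.24% of all genes were, and at day 6, 1 was lower, where 2.36% were. At day 8, 0 were called, and at day 10, 1 was higher, where 5.62% of all genes were. The median difference of the antagonists was -0.70, -0.53, -0.54, 0.01 and -0.37 at days 4, 5, 6, 8 and 10, respectively, and the median of all genes lay between -0.01 and 0.03 on these days. Averaged over days 4 to 10, 2 targets were higher and 2 antagonists were lower, against 14.8% of all genes higher and 12.2% lower.

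**Figure D2:**
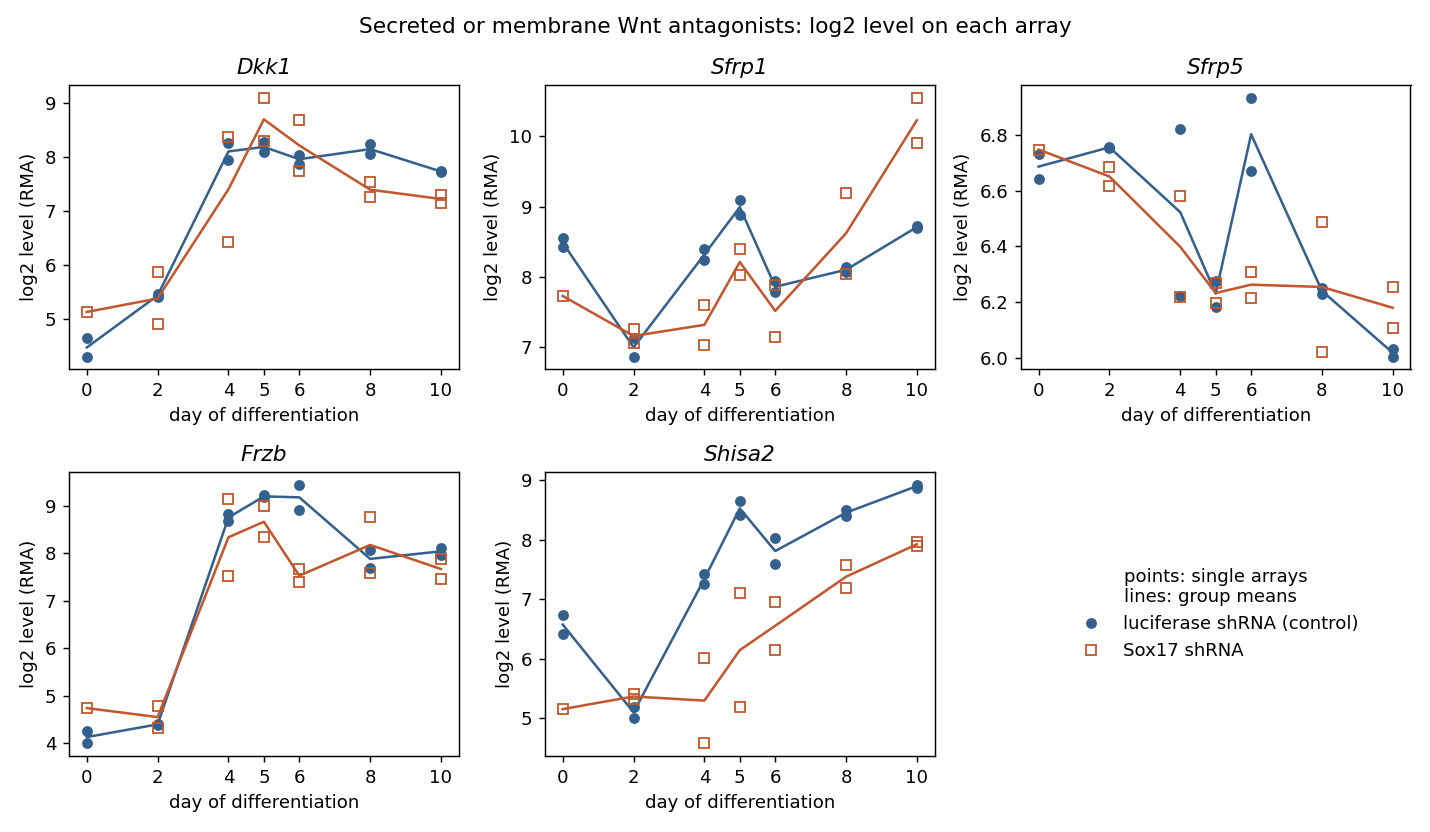
Log2 level (vertical axis) of the 5 Wnt antagonist genes against day of differentiation (horizontal axis), with points for single arrays and lines through the means of the control and Sox17 shRNA arms. Both Sox17 shRNA arrays lie below both control arrays for Shisa2 from day 4 to day 10, and Sfrp1 goes from below the control arrays at days 4 and 5 to above them at day 10.

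Shisa2 was lower in the Sox17 shRNA arm at days 4 and 5. At day 4 it was at 7.26 and 7.42 in the control arm and 4.58 and 6.01 in the Sox17 shRNA arm, and at day 5 at 8.65 and 8.41 against 5.18 and 7.10. At day 6 it was at 8.03 and 7.60 against 6.96 and 6.14. At day 8 the control arrays were at 8.41 and 8.50 and the Sox17 shRNA arrays at 7.57 and 7.19, and at day 10 they were at 8.93 and 8.88 and at 7.96 and 7.89. The arms did not overlap on any of these days, although the Sox17 shRNA arrays of days 4 and 5 lay far apart. The difference was -2.05 at day 4 (4.13-fold, SE 0.45, limma adjusted p = 0.0150) and -2.38 at day 5 (5.22-fold, adjusted p = 0.00323). At days 6, 8 and 10 it was -1.26, -1.08 and -0.98 and was not called (adjusted p = 0.134, 0.239 and 0.212). At day 4 the call no longer held on leaving out control replicate 1 (adjusted p = 0.0647), control replicate 2 (adjusted p = 0.0841) or Sox17 shRNA replicate 1, where the difference was -1.33 (adjusted p = 0.117). At day 5 the call no longer held on leaving out Sox17 shRNA replicate 1, where the difference was -1.42 (adjusted p = 0.0731), and was -3.35 without replicate 2. The Sox17 shRNA array with the lower Shisa2 had the lower Sox17 of its pair at days 4 and 5 and the higher Sox17 at days 6, 8 and 10. The average over days 4 to 10 was -1.55 (2.93-fold, SE 0.20, limma adjusted p = 1.55e-05), called without each array in turn and with the second probe set, which gave -1.38. At day 10 the second probe set gave -1.25 and was called (adjusted p = 0.0227). At days 6 and 8 it gave -1.14 and -0.76 and was not called (adjusted p = 0.0592 and 0.269).

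Frzb was at 9.45 and 8.91 in the control arm at day 6 and at 7.66 and 7.39 in the Sox17 shRNA arm, which do not overlap. The difference was -1.65 (3.14-fold, SE 0.40, limma adjusted p = 0.0204), and the second probe set gave -1.93. At day 6 the call no longer held on leaving out control replicate 1 (adjusted p = 0.250), Sox17 shRNA replicate 1 (adjusted p = 0.0646) or Sox17 shRNA replicate 2 (adjusted p = 0.104). At day 4 the Sox17 shRNA arrays lay on either side of the control arrays, at 7.52 and 9.15 against 8.69 and 8.82. Averaged over days 4 to 10, Frzb was lower by 0.54 (1.45-fold, SE 0.18, limma adjusted p = 0.0342). That call held in 8 of the 20 fits that left out 1 array, whose values ran from -0.70 to -0.37 with limma adjusted p from 0.00106 to 0.0793. It was also lost with the second probe set (adjusted p = 0.0594).

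Sfrp1 was at 8.39 and 8.25 in the control arm at day 4 and at 7.03 and 7.61 in the Sox17 shRNA arm, and at day 5 at 9.10 and 8.89 against 8.40 and 8.02. At day 8 it was at 8.07 and 8.14 against 9.20 and 8.04, and at day 10 at 8.72 and 8.70 against 10.55 and 9.91. The Sox17 shRNA arrays went from below the control arrays to above them. The difference was -1.0 at day 4 (SE 0.30, limma adjusted p = 0.0645) and -0.78 at day 5 (adjusted p = 0.121). At day 10 it was 1.52 (2.86-fold, adjusted p = 0.00288), and only the day 10 difference was called in the main fit. With the replicate block over days, the day 4 difference was also called (limma adjusted p = 0.0419). The other probe sets disagreed at day 4, with differences from -1.88 (adjusted p = 0.0384) to -0.17 (adjusted p = 0.813). Of these, only that at -1.88 was called. At day 5 they gave -0.89 to -0.31, none called. All 5 probe sets of Sfrp1 were called as higher at day 10, with differences from 0.98 to 1.88. The call was lost without Sox17 shRNA replicate 1 of day 10, where the difference was 1.20 (adjusted p = 0.0599). In the Sox17 shRNA arm Sfrp1 rose by 3.07 from day 2 to day 10 (8.38-fold), and in the control arm by 1.71, comparisons in which 70.0% and 69.8% of all genes were called, and the fourth probe set gave -0.73 in the control arm. Without Sox17 shRNA replicate 2 of day 8, the day 8 difference was also called, at 1.10 (adjusted p = 0.0345).

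Dkk1 was not called on any day. At day 4 it was at 7.95 and 8.25 in the control arm and 6.42 and 8.38 in the Sox17 shRNA arm, so that 1 Sox17 shRNA array lay well below the control arrays and 1 just above them. At day 5 it was at 8.28 and 8.09 against 8.30 and 9.09, and at day 10 at 7.72 and 7.74 against 7.15 and 7.29. Averaged over days 4 to 10 the difference was -0.24 (SE 0.20, limma adjusted p = 0.436), and without Sox17 shRNA replicate 2 of day 4 it was -0.44 and called (adjusted p = 0.0267).

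Sfrp5 was not called on any day by its main probe set in the main fit. It was at 6.93 and 6.67 in the control arm at day 6, against 6.31 and 6.22, a difference of -0.54 (SE 0.18, limma adjusted p = 0.0914). With the replicate number as a block within days, this difference was called (limma adjusted p = 0.0327). The second probe set gave -1.06 at day 6, which was called (adjusted p = 0.00164).

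The day 4 values of 4 antagonists varied between the replicates. Comparing the arrays of replicate 1, which share the high spike signal, Shisa2 differed by -2.69, Dkk1 by -1.53, Sfrp1 by -1.36 and Frzb by -1.16. Comparing the arrays of replicate 2, the same differences were -1.41, 0.12, -0.64 and 0.33. The Sox17 shRNA array of replicate 1 was the one with Sox17 at 5.53, and that of replicate 2 had Sox17 at 9.39 and the widest 3′ to 5′ gap. Leaving out Sox17 shRNA replicate 2 leaves 1 Sox17 shRNA array at day 4. The differences were then -2.77 for Shisa2, -1.68 for Dkk1, -1.29 for Sfrp1 and -1.23 for Frzb. In replicates 1 and 2, respectively, Sfrp5 differed by -0.24 and -0.01. Of the targets, Ccnd1 differed by 0.69 and 0.80, Sp5 by 0.71 and 0.83, Axin2 by 0.31 and 0.47, Nkd1 by 0.18 and 0.49 and Lef1 by -0.33 and -0.09.

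**Figure D3:**
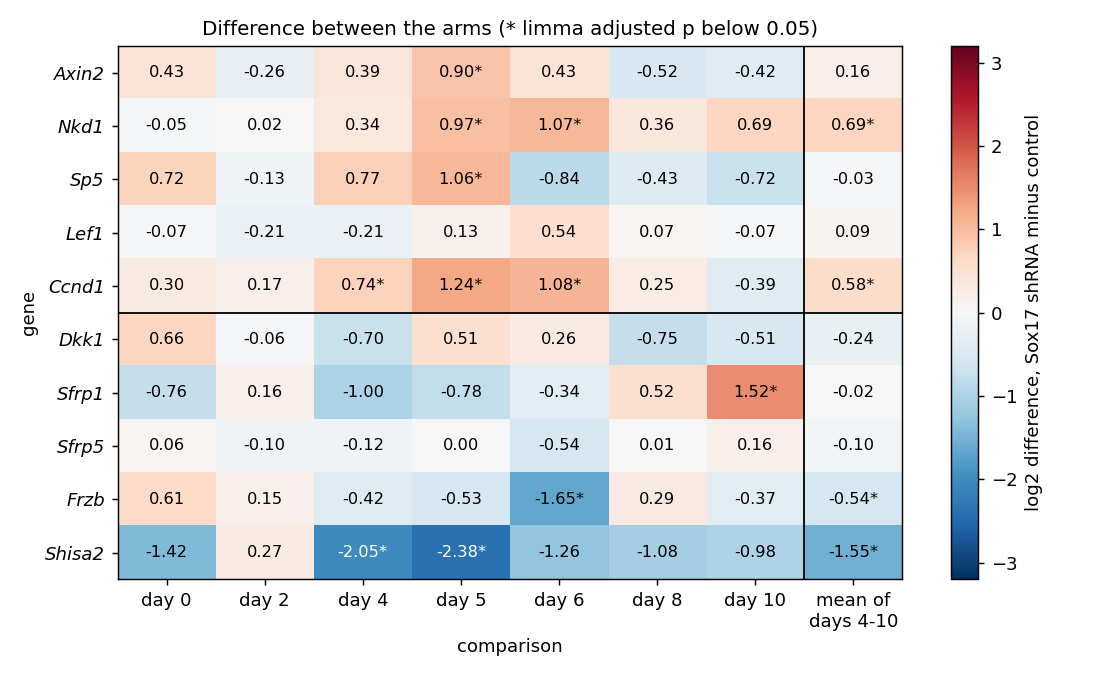
Log2 difference of Sox17 shRNA minus control (colour and printed value) for the 5 targets (upper rows) and 5 antagonists (lower rows) at each day and averaged over days 4 to 10, with an asterisk where the limma adjusted p was below 0.05. The called differences of the targets at single days are positive and lie at days 4 to 6, while Shisa2 has the largest negative differences, at -2.05 and -2.38 on days 4 and 5.

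Whether the arm difference itself varied over days 4 to 10 was tested with a moderated F test on the differences at days 5, 6, 8 and 10 relative to day 4. Over all genes, 4.84% passed. Of the 10 genes, 4 passed: Ccnd1 (limma adjusted p = 0.00254), Sfrp1 (adjusted p = 0.00463), Sp5 (adjusted p = 0.00476) and Axin2 (adjusted p = 0.0473). From day 4 to day 10, where 3.86% of all genes were called, the arm difference of Sfrp1 rose by 2.52 (SE 0.43, limma adjusted p = 0.00183), that of Sp5 fell by 1.49 (SE 0.37, adjusted p = 0.0263) and that of Ccnd1 fell by 1.13 (SE 0.26, adjusted p = 0.0160). The Axin2 result was lost without control replicate 1 of day 4 (adjusted p = 0.0561) and under 6 other settings (adjusted p from 0.0504 to 0.381). The results of the other 3 genes held without each array of day 4 in turn. The fourth probe set of Sfrp1 did not pass (adjusted p = 0.145). Nkd1 and Shisa2, which had called averages, did not pass this test (adjusted p = 0.600 and 0.560), so a difference between days was not shown for them.

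Marker genes of several cell types differed between the arms at the same times. At day 5 the mean of 5 primitive streak markers was 6.58 and 6.72 in the control arrays and 8.72 to 8.81 in the Sox17 shRNA arrays, and 4 of the 5 were called as higher. The mean of 6 pluripotency markers was 7.39 to 7.67 against 8.21 to 9.79, with 3 of 6 higher. The mean of 6 definitive endoderm markers was 9.10 to 9.24 in the control arm at day 4, against 5.61 to 8.17, with 5 of 6 lower, and this list holds Sox17 itself. At day 6 the mean of 6 cardiac muscle markers was 10.30 to 10.34 against 5.58 to 5.73, with 6 of 6 lower. Over all genes, 6.15% were higher at day 5, 1.81% lower at day 4 and 2.36% lower at day 6. At day 10, where Sfrp1 was higher, the mean of 6 fibroblast and mesenchyme markers was 11.10 to 11.16 against 12.01 to 12.27, with 2 of 6 higher, where 5.62% of all genes were higher and 4.38% lower. On the same day the mean of the cardiac list was 10.75 to 10.82 against 7.71 to 7.76, with 6 of 6 lower, and that of 6 neural ectoderm markers was 7.22 to 7.26 against 5.28 to 5.45, with 4 of 6 lower. The definitive endoderm mean was 7.75 on both control arrays of day 10, against 6.57 to 6.77, with 2 of 6 lower, and the visceral endoderm mean was 8.98 to 9.0 against 6.29 to 8.05, with 3 of 6 lower. The part of these marker shifts in the values of the Wnt genes was not tested.

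Other genes of the pathway were taken from lists of ligands, receptors, intracellular components, further targets and further antagonists. Of 19 Wnt ligand and release genes tested, 2 were higher at day 5 and 0 lower, where 6.15% of all genes were higher and 3.24% lower. Rspo3, a secreted amplifier of Wnt signalling, was at a mean of 9.66 in the Sox17 shRNA arm and 7.73 in the control arm at day 5, a difference of 1.93 (3.80-fold, SE 0.34, limma adjusted p = 0.00184). That call was lost without Sox17 shRNA replicate 1 of day 5 (adjusted p = 0.0501). Wnt5b was higher by 1.56 at day 4 and by 1.88 at day 5 (3.69-fold, limma adjusted p = 3.08e-04), and both calls held without each array of the day. The day 4 call of Wnt5b was lost with array weights and with only the arrays of the day in the fit. Wnt2 was higher by 2.02 at day 10 (4.06-fold, limma adjusted p = 3.74e-06), after a lower level at day 6 (-0.96) that was lost without control replicate 1 or Sox17 shRNA replicate 2 of that day.

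Of 20 receptor genes tested, 6 were lower and 2 higher at day 5, with a median difference of -0.27, and 9 were lower and 3 higher averaged over days 4 to 10. Over all genes, 3.24% were lower and 6.15% higher at day 5, and 12.2% were lower and 14.8% higher on average. Fzd5, a Frizzled receptor, was at a mean of 5.96 in the Sox17 shRNA arm and 7.91 in the control arm at day 5, a difference of -1.96 (3.88-fold, SE 0.37, limma adjusted p = 0.00321), which was lost without Sox17 shRNA replicate 1 (adjusted p = 0.0764) and with only the arrays of the day in the fit. The Fzd5 average was -1.15 (2.21-fold, limma adjusted p = 4.48e-05). Ror1, a receptor of noncanonical Wnt signalling, was lower by 1.39 at day 5 (2.61-fold, adjusted p = 0.00173), and Fzd1 was lower by 1.33 at day 6 (2.52-fold, adjusted p = 0.00198). The Fzd1 call was lost without control replicate 1 of day 6 (adjusted p = 0.0549), and its average of -0.70 had adjusted p = 6.62e-05.

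Of 20 intracellular genes tested, 0 were higher and 4 lower averaged over days 4 to 10, with a median of -0.05, against 14.8% of all genes higher and 12.2% lower. Tcf7l2, a TCF/LEF factor, had an average difference of -0.84 (1.79-fold, limma adjusted p = 0.00125). Tle1, a corepressor that TCF/LEF factors bind, was lower by 0.84 at day 10 (1.80-fold, limma adjusted p = 1.61e-04). Csnk1a1, a kinase that marks beta-catenin for degradation, had an average of -0.18 (adjusted p = 5.08e-04), which was lost with the mean of all its probe sets. At day 0 it already differed by -0.39 (adjusted p = 0.0343), a call lost without either control array.

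Of 15 further target genes, 4 were higher and 0 lower at day 5, with a median of 0.41, where 6.15% of all genes were higher and 3.24% lower. Fgf8, a growth factor of the primitive streak, was at a mean of 7.63 in the Sox17 shRNA arm and 5.01 in the control arm, a difference of 2.62 (6.15-fold, SE 0.33, limma adjusted p = 1.53e-04). Sp8, a relative of Sp5, was higher by 1.71 at day 4 (3.28-fold, adjusted p = 0.00270). Dact1, whose product binds Dishevelled, was lower by 1.75 at day 6 (3.37-fold, adjusted p = 5.47e-04). Each of these 3 calls held without any single array of its day, but that of Sp8 was lost with array weights and with only the arrays of the day in the fit.

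Of 10 further antagonists, 2 were higher and 2 lower averaged over days 4 to 10, near the 14.8% and 12.2% of all genes. Cer1, a secreted inhibitor from anterior endoderm that also stands in the endoderm marker list, was at a mean of 5.92 in the Sox17 shRNA arm and 9.05 in the control arm at day 4. The difference was -3.12 (8.72-fold, SE 0.60, limma adjusted p = 0.00683), and it was lost without control replicate 1 (adjusted p = 0.0559) and with only the arrays of the day in the fit. Shisa3 was lower by 2.33 at day 8 (5.02-fold, limma adjusted p = 2.75e-04). Dkk2 was higher by 1.58 at day 10 (2.98-fold, adjusted p = 0.00332), a call lost without control replicate 1 of that day (adjusted p = 0.0506).

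**Figure D4:**
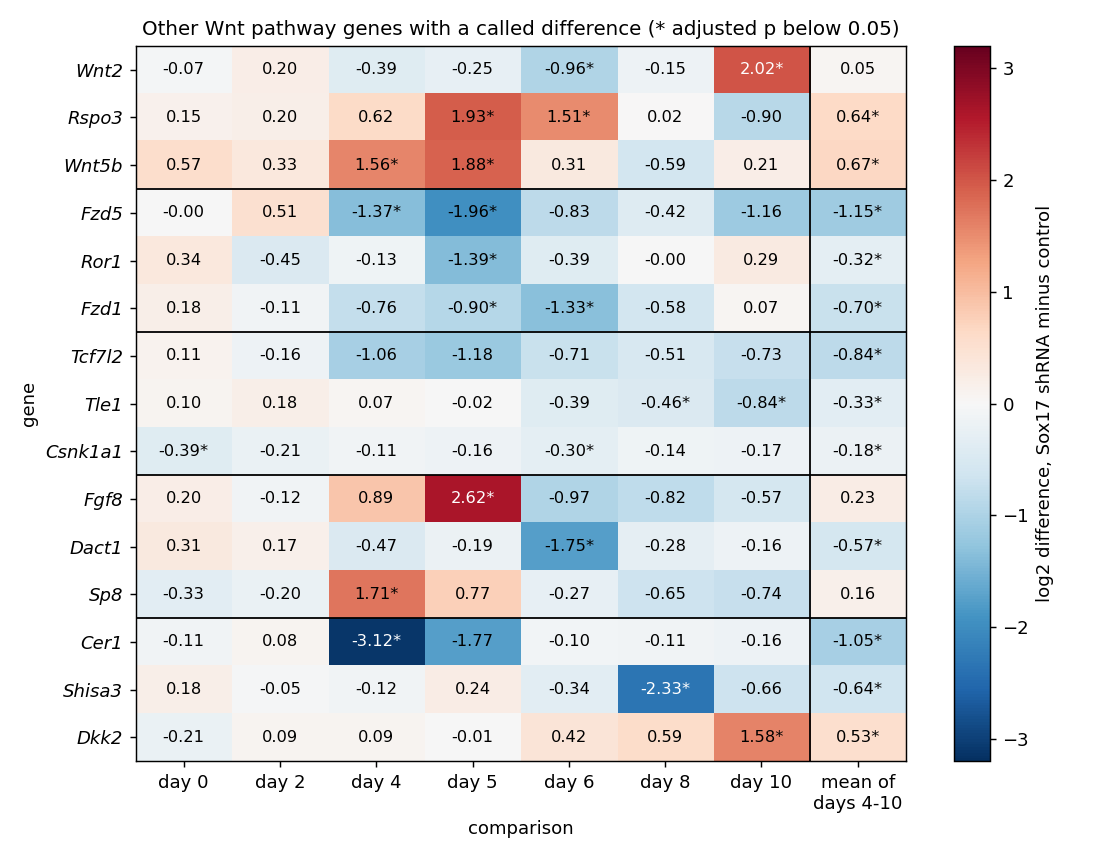
Log2 difference of Sox17 shRNA minus control (colour and printed value) for named ligand, receptor, intracellular, further target and further antagonist genes (blocks from top to bottom) at each day and averaged over days 4 to 10, with an asterisk where the limma adjusted p was below 0.05. Rspo3, Wnt5b and Fgf8 are higher at day 5 by 1.93, 1.88 and 2.62, and the receptors Fzd5, Ror1 and Fzd1 are lower.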

How the data were processed

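Affymetrix mouse expression arrays of 27 cultures were analysed. The authors deposited log2 values for 45101 probe sets, made with RMA per the submitters' processing notes; whether all arrays were processed together is not given in the sources used here. Array medians were 5.50 to 5.56, and the number of arrays limits the precision. Probe sets with 1 gene symbol (34958) were kept where they exceeded the overall median of 5.53 in at least 2 arrays, and each gene was read from its probe set with the highest mean, which left 13297 genes. One mean per arm and day was fitted with limma 3.58.1 (R 4.3.3) over all arrays with an intensity trend, and p-values were Benjamini-Hochberg adjusted over all genes. The fit was tested on simulated data. Arm differences, their average over days 4 to 10, their variation over those days, and changes within an arm were tested. Named pathway genes were up to 3 called genes per list with the largest differences. The 10 genes and all lists were chosen with earlier results of these data known. Deviations of same-numbered arrays correlated at 0.683 at day 4 and between 0.0986 and 0.220 on the other days. They were not above 0.1 on every day, and the labels name no shared source, so the main fit has no replicate block. Such a block was fitted as an alternative. Alternatives covered filters, probe sets, weights, spike signal, blocks and left-out arrays.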

Additional observations from a re-analysis of the deposited data

Results flagged for a closer look

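The arm difference varied over days 4 to 10 in 4 of the 10 genes by limma's moderated F test on the differences at days 5, 6, 8 and 10 relative to day 4. The adjusted p was 0.0473 for Axin2, 0.00476 for Sp5, 0.00254 for Ccnd1 and 0.00463 for Sfrp1. In Axin2 and Sp5 the Sox17 shRNA arm was the higher one at day 5 and the lower one at day 10, in Ccnd1 it was higher from day 4 to day 8 and lower at day 10, and in Sfrp1 it was lower at days 4 and 5 and higher at day 10.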

How the results depend on the processing

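With 2 arrays per group, calls at single days were the least stable. Of 124 fits of called arm differences that left out 1 array, 89 kept the call, 35 lost it and 0 turned the sign. These pool single days with the average over days 4 to 10, where 1 array of 20 weighs less. For the average, Nkd1, Ccnd1 and Shisa2 kept the call in 20 of 20 fits and Frzb in 8. At single days, Ccnd1 at days 5 and 6 kept it in 4 of 4 fits. Shisa2 at day 5 and Sfrp1 at day 10 kept it in 3 of 4, and each other single-day call in 1 of 4. Of 207 fits of called arm differences under other settings, 189 kept the call and 18 lost it. When arrays were left out, the number of targets called was 0 to 1 (day 4), 1 to 3 (day 5), 1 to 2 (day 6), 0 to 1 (day 10) and 2 to 2 (average), and that of antagonists 0 to 4 (day 4), 0 to 1 (days 5, 6, 8 and 10) and 1 to 3 (average). For the variation over days, only the 4 arrays of day 4 were left out in turn, and the arrays of the other days were not. With only the arrays of the comparison in the fit, 1 target was called at each of days 5, 6 and 10 and 0 at day 4. The antagonists called were 0 (days 4 and 5), 1 (day 8), 3 (day 10) and 1 (average). At day 0, with 1 Sox17 shRNA array, more of both classes were called than in the main fit. The share of all genes called under this and the other alternative fits is not printed here, so the counts cannot be set against it. With array weights, 0 targets were called at day 4 and 3 at day 10, and the antagonists called were 1 (day 0), 0 (day 4), 3 (day 6), 1 (day 8) and 2 (day 10). With the replicate number as a block within days, 2 antagonists were called at day 6 and 1 target at day 10, since Sfrp5 at day 6 (adjusted p = 0.0327) and Nkd1 at day 10 (0.0241) passed, as did Sp5 at day 6 (-0.84, 0.0415). With the replicate block over days, 2 antagonists were called at day 4 and 2 at day 6. These blocks changed no other number of called members by over 1.5 times. The stricter filter, the mean of all probe sets, the spike term and the second probe set each gave 2 antagonists at day 6. The mean of all probe sets gave 1 target at day 10, and the second probe set 2 antagonists at day 10 and 2 for the variation over days. Leaving out the Sox17 shRNA arrays of wide 3′ to 5′ gap leaves 1 Sox17 shRNA array at each of days 4 and 6. More antagonists were then called at day 4 and for the variation over days, and 1 target was called at day 10. The cause was not tested.

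Some changes over days turned direction with another probe set of the gene. For Nkd1 the second probe set gave -0.40 and -0.70 for control days 4 and 10 against day 0, -0.17 and -0.47 against day 2, and -0.26 and -0.51 for Sox17 shRNA days 4 and 10 against day 2, and the third gave -0.13 for control day 10 against day 0. For Ccnd1 the third gave -0.48 and -1.24 for control day 10 against days 0 and 2. For Sfrp1 the third gave -0.89 for control day 10 against day 0 and -0.82 for Sox17 shRNA day 4 against day 2, and the fourth gave -1.17 and -0.73 for control day 10 against days 0 and 2 and -0.0063 for control day 4 against day 2. With the spike term, Sfrp5 in the Sox17 shRNA arm differed by 0.0098 between days 10 and 2. The cause was not tested.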

Other observations

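Over the 14 group means, the gene most like each of the 10 was named by Pearson correlation, as a description over points that share arms, days and arrays. Each r is the highest among all tested genes outside the 10, so a high value is selected. The highest r of other genes was not computed for comparison. Axin2 was most like Rspo3 (r = 0.967), the secreted Wnt amplifier that was also higher at day 5. Frzb was most like Aplnr (r = 0.967), the apelin receptor, and Sp5 was most like Apln (r = 0.941), which codes for the ligand of that receptor. Nkd1 was most like Serpinb9 (r = 0.992), Dkk1 like Tirap (r = 0.974), Shisa2 like S100a1 (r = 0.964) and Lef1 like Selenot (r = 0.953). Sfrp1 was most like Ndufa3 (r = 0.906), Sfrp5 like Zfp281 (r = 0.883) and Ccnd1 like Htra2 (r = 0.827), the lowest of the 10 values.

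Among the 10 genes themselves, the median correlation was 0.33 over the 10 pairs of targets, 0.33 over the 10 pairs of antagonists and 0.10 over the 25 pairs between the classes, each over 14 group means. Medians over pairs of other genes were not computed. The highest pair was Dkk1 with Frzb (r = 0.945), both antagonists, and the second was Axin2, a target, with Dkk1 (r = 0.873). The lowest was Nkd1 with Sfrp5 (r = -0.840).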
